A study of Rattus norvegicus with 6 samples.

Results

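The genes described here are 10 genes of autophagy, taken from the deposited count table by their gene symbols, STZ-treated against vehicle-treated cells. All 10 were among the 18930 genes of the table, each on a single row. NRK-52E is an established rat kidney epithelial cell line. RNA was sequenced from 3 samples of wild-type cells given the vehicle (Control) and from 3 samples of wild-type cells exposed to 10 mM of streptozotocin (STZ), a nitrosourea that alkylates DNA, for 24 h. Both groups were the same line grown in culture, so the samples were not animals, and the sources used here do not say whether they were separate cultures. The p-values therefore measure the spread between these samples.

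Autophagy encloses cytoplasm in a double membrane, the autophagosome, and delivers it to the lysosome. The ULK kinases start the process, a lipid kinase built around Beclin 1 marks the membrane, WIPI proteins read that mark, and an enzyme cascade that begins with ATG7 attaches the ubiquitin-like Atg8 proteins (the LC3 and GABARAP proteins) to the membrane, where receptors such as SQSTM1 (p62) bring in cargo. DRAM1, a lysosomal membrane protein, is known as a target of p53 that takes part in autophagy. In kidney tubule cells autophagy is known to remove damaged mitochondria and protein aggregates. RNA was measured here, and RNA counts do not measure autophagic flux.

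Total counts lay between 10430924 and 15191349 per sample, and every member had at least 170 reads in each sample. Levels are given as CPM, the reads of a gene per 1000000 reads of the library, after TMM scaling of the libraries. Of the kidney epithelium markers checked, Krt8 and Cdh1 had more than 10 reads in at least 1 sample. Krt18, Cdh16 and Pax8 had at most 10 reads in any sample. The proximal tubule markers Lrp2, Cubn, Slc34a1, Slc5a2 and Slc2a2 likewise had at most 10 reads, and only Aqp1 of the 6 passed the filter on low counts. The summed level of the 5 fibroblast markers lay between 99.6 and 111 CPM in Control and between 56.1 and 66.7 CPM in STZ. That of 5 kidney epithelium markers lay between 1106 and 1180 CPM in Control and between 1599 and 1615 CPM in STZ. A single gene reached 24040 reads in 1 sample, so this sum rests mostly on 1 gene and does not describe the 5 as a set. That of the 6 proximal tubule markers lay between 9.90 and 16.5 CPM in Control and between 5.74 and 6.83 CPM in STZ. The largest count in that set was 167 reads, of Aqp1, against at most 10 for each of the others. The 4 endothelial markers summed to at most 1.13 CPM and 4 leukocyte markers to at most 2.40 CPM. The part of these shifts in the results was not tested.

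All 10 members passed the filter on low counts. By edgeR's quasi-likelihood test, the source of every adjusted p-value below, 7 were higher in STZ, 1 was lower and 2 were not past an adjusted p-value of 0.05. Of all 11870 genes tested, 25.9% were higher and 25.1% lower at that threshold, 50.9% in all, so a call by itself was common in these cells. In RNA of whole cultures, fewer cells that express a gene and less of its RNA per cell cannot be told apart. The median log2 fold change of the 10 members was 0.22, against -0.01 for all genes tested. None of the 10 reached the study's fold-change threshold, an absolute log2 fold change over 1, which 3.37% of all genes passed together with the adjusted p-value. The CPM of the groups did not overlap for 7 of the 10 members, and this held for 56.3% of all genes. Summed over the 10 members, the level was 945, 947 and 942 CPM in the Control samples and 1184, 1150 and 1156 CPM in the STZ samples.

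**Figure D1:**
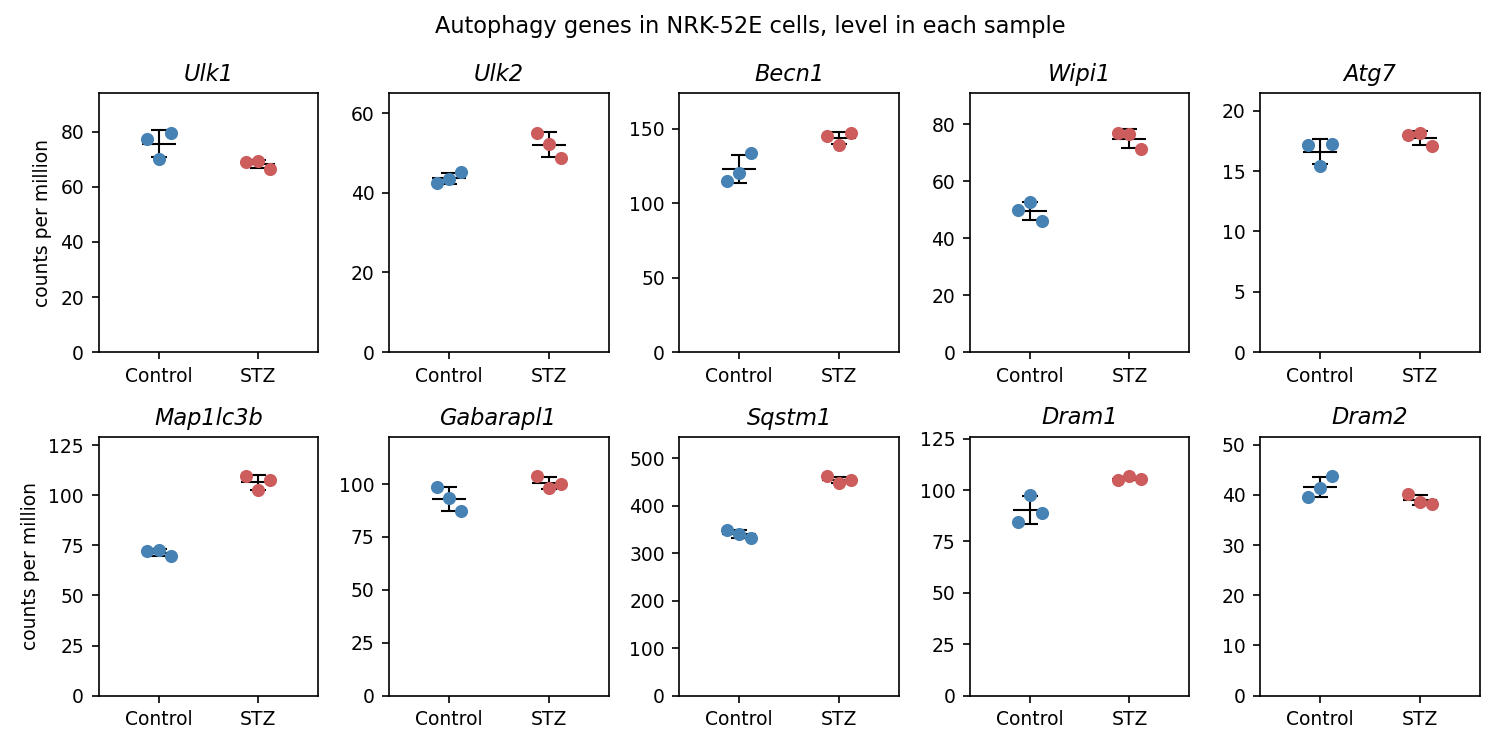
Level of each of the 10 autophagy genes in CPM (vertical axes, each from 0), with 1 point for each of 3 Control (blue) and 3 STZ (red) samples, a black dash for the mean and bars for the SD. The points of Wipi1, Map1lc3b and Sqstm1 are the farthest apart between groups relative to their spread, and those of Gabarapl1, Dram2 and Atg7 overlap.

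The kinases that start autophagy were called in opposite directions, Ulk1 lower and Ulk2 higher. Ulk1 was at 77.4, 70.0 and 79.5 CPM in Control and at 69.0, 69.3 and 66.5 CPM in STZ. Each STZ sample lay under each Control sample, but the lowest Control sample was 70.0 and the highest STZ sample 69.3 CPM. The mean was 75.7 ± 4.99 CPM in Control and 68.3 ± 1.57 CPM in STZ (SD, n = 3). The log2 fold change of Ulk1 was -0.15 (standard error, SE, 0.05; adjusted p = 0.0159). The call for Ulk1 was lost without Control replicate 1 (adjusted p = 0.0516), Control replicate 3 (0.113) or STZ replicate 3 (0.0807), and with DESeq2 (0.0546). Ulk2 was at 42.5, 43.4 and 45.2 CPM in Control and at 55.0, 52.3 and 48.8 CPM in STZ, so the groups did not overlap. Its log2 fold change was 0.25 (SE 0.06, adjusted p = 7.29e-04).

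Within each sample, the reads of Ulk1 were set against those of Ulk2, a ratio in which library size and gene length cancel between groups. The log2 ratio was 0.86, 0.69 and 0.81 in Control and 0.33, 0.41 and 0.45 in STZ. The mean ratio differed by -0.40 between STZ and Control (SE 0.06), and the groups did not overlap. The two-sided exact permutation p was 0.1, which is the smallest that 3 samples against 3 allow, and also 0.1 after adjustment over the 4 pairs compared.

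Becn1, which encodes Beclin 1, the scaffold of the lipid kinase complex, was at 115, 120 and 134 CPM in Control and at 145, 139 and 147 CPM in STZ. All STZ samples were higher, with a log2 fold change of 0.22 (SE 0.05, adjusted p = 1.15e-04). Wipi1, which encodes a protein that binds the lipid made by this complex, had the largest fold change of the 10. It was at 49.9, 52.6 and 46.1 CPM in Control and at 76.9, 76.6 and 71.2 CPM in STZ. The gap between the groups was several times the SD of either, and the log2 fold change was 0.60 (SE 0.06, adjusted p = 6.8e-12), or 1.51-fold. Of all genes tested, 6.15% had a larger log2 fold change than Wipi1.

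Atg7 encodes the activating enzyme of both conjugation reactions and had the fewest reads of the members. It was at 17.2, 15.5 and 17.2 CPM in Control and at 18.0, 18.2 and 17.1 CPM in STZ. The groups overlapped, and the log2 fold change of 0.09 (SE 0.09, adjusted p = 0.427) was no larger than its error. At 170 to 256 reads per sample, a change of this size was not detectable.

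Map1lc3b encodes LC3B, the Atg8 protein most used to mark autophagosomes. It was at 72.0, 72.7 and 69.6 CPM in Control and at 109, 102 and 108 CPM in STZ. The 2 groups were widely separated, with a log2 fold change of 0.58 (SE 0.05, adjusted p = 1.92e-13), or 1.49-fold. Gabarapl1, of the GABARAP branch of the same family, was at 98.5, 93.5 and 87.3 CPM in Control and at 104, 97.9 and 100.2 CPM in STZ. Its groups overlapped, since the lowest STZ sample was under the highest Control sample. It passed the threshold narrowly, at a log2 fold change of 0.11 (SE 0.05, adjusted p = 0.0472). This call was lost under 8 of 14 alternatives, among them library size only (adjusted p = 0.169), the upper quartile (0.103), and leaving out Control replicate 2 (0.088), Control replicate 3 (0.298), STZ replicate 1 (0.163) or STZ replicate 3 (0.085). The log2 ratio of Map1lc3b to Gabarapl1 reads was -0.45, -0.36 and -0.33 in Control and 0.08, 0.07 and 0.10 in STZ. It moved up by 0.46 (SE 0.04), the largest shift of the 4 pairs, with no overlap (two-sided exact permutation p = 0.1, adjusted 0.1, the smallest possible).

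Sqstm1 encodes p62, which binds ubiquitinated cargo and LC3 and is itself degraded by autophagy. It was at 348, 340 and 331 CPM in Control and at 462, 449 and 454 CPM in STZ. The samples of each group lay close together and far from the other group, with a log2 fold change of 0.42 (SE 0.04, adjusted p = 4.97e-13), or 1.34-fold. The log2 ratio of Sqstm1 to Map1lc3b reads was 2.27, 2.23 and 2.25 in Control and 2.08, 2.13 and 2.08 in STZ, a difference of -0.16 (SE 0.02; two-sided exact permutation p = 0.1, adjusted 0.1).

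Dram1 was at 84.6, 97.6 and 88.7 CPM in Control and at 105, 107 and 105 CPM in STZ. The STZ samples were close to each other (SD 0.909 CPM, n = 3) and all lay above the Control samples, which were more spread (SD 6.64 CPM, n = 3). The log2 fold change was 0.23 (SE 0.05, adjusted p = 1.77e-04), and 21.1% of all genes tested had a larger one. Dram2, a relative of Dram1 that is also found at the lysosomal membrane, was at 39.6, 41.5 and 43.7 CPM in Control and at 40.2, 38.5 and 38.2 CPM in STZ. Its groups overlapped (log2 fold change -0.10, SE 0.06, adjusted p = 0.213). The log2 ratio of Dram1 to Dram2 reads was 1.09, 1.23 and 1.02 in Control and 1.38, 1.47 and 1.46 in STZ, a rise of 0.32 (SE 0.07) without overlap (two-sided exact permutation p = 0.1, adjusted 0.1).

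**Figure D2:**
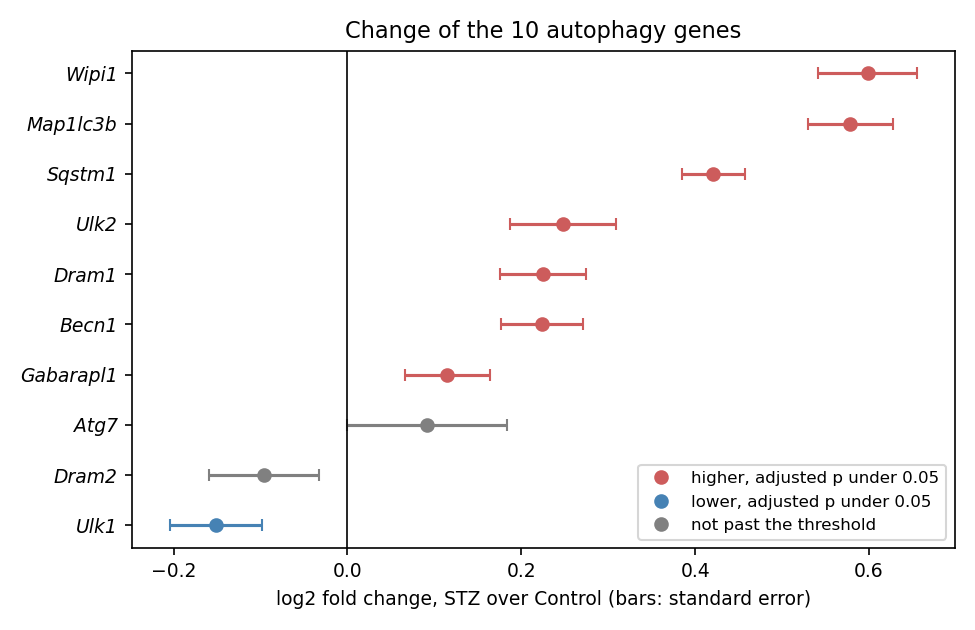
Log2 fold change of STZ over Control for the 10 autophagy genes (horizontal axis), with bars for the standard error, in red where higher, in blue where lower and in grey where not past an adjusted p-value of 0.05. Wipi1, Map1lc3b and Sqstm1, at 0.60, 0.58 and 0.42, lie apart from the other 7 genes, which lie between -0.15 and 0.25.

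**Figure D3:**
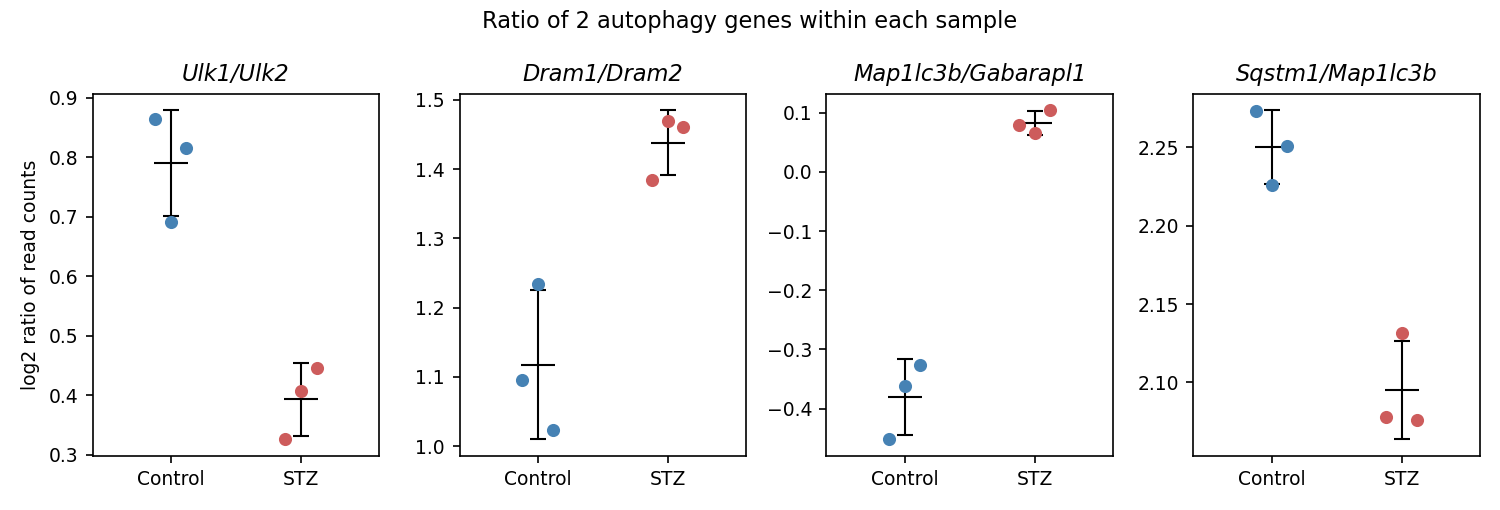
Log2 ratio of the read counts of 2 autophagy genes within each sample (vertical axes, which do not start at 0), for 3 Control (blue) and 3 STZ (red) samples, with the mean as a dash and the SD as bars. In each of the 4 pairs the 3 STZ samples lie on one side of the 3 Control samples.

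The pattern of Wipi1 over the 6 samples was compared with that of 9796 genes that have a symbol and enough reads. Pearson's r of the log2 CPM was 0.9996 for Acot8, 0.9985 for Pxdc1 and 0.9984 for Rps19. As these 6 points are 2 groups of 3, 907 genes had an r over 0.95.

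The upstream sequences of the members are given for the kinase pair, whose RNAs were called in opposite directions, and for Sqstm1, the member with the most reads. Each is the 250 bases before the RefSeq start of the gene in GRCr8, 5′ to 3′ on the strand of the gene, with matches to the motifs named after them in capitals.

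Ulk1, chr12:51511242-51511491, plus strand: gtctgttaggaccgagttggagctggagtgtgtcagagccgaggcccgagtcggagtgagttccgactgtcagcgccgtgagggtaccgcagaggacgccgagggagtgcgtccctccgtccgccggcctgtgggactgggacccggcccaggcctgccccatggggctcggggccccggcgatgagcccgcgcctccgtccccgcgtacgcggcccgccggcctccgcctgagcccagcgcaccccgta

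Ulk2, chr10:47029845-47030094, minus strand: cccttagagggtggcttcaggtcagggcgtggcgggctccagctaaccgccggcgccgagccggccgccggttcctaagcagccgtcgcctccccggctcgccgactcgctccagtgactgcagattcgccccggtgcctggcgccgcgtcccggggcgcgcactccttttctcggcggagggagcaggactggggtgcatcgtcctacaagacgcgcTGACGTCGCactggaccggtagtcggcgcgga

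Sqstm1, chr10:35037751-35038000, minus strand: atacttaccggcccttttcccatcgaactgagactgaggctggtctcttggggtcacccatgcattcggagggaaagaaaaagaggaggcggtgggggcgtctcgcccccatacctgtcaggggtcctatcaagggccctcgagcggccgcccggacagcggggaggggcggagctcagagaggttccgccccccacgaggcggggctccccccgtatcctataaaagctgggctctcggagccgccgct

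These windows were searched on both strands, as were those of 9 members in all. The motifs were the E-box CACGTG and its longer form TCACGTG, which is bound by TFEB and overlaps the first, the antioxidant response element core TGACNNNGC, the FOXO motif GTAAACA, the ATF4-type core TGATGNAA, and the p53 half-site and full site. Only TGACNNNGC was found in the 9 windows, once, as TGACGTCGC in Ulk2, where it ends 24 bases before the start. Of 33469 such windows in the RefSeq table, 10.1% held TGACNNNGC, 5.59% CACGTG, 2.79% TCACGTG, 3.21% GTAAACA, 3.4% TGATGNAA, 6.64% a p53 half-site and 0.0388% a full site, that is, 2 half-sites at most 13 bases apart. Sequence outside these windows was not searched. The GC content of the windows was 73.6% for Ulk1, 71.6% for Ulk2 and 65.2% for Sqstm1, against a median of 51.2% for all windows.

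A wider list of 71 other genes of the pathway and its regulators was arranged by role. Of these, 68 passed the filter, and 30 were higher, 9 lower and 29 not past the adjusted p-value of 0.05 in STZ. Over all genes tested the shares were 25.9% higher and 25.1% lower, and the 39 of 68 called in either direction lie near the 50.9% of all genes. Their median log2 fold change was 0.13, against -0.01 for all genes. With library size as the only scaling, 26 were higher and 14 lower. None passed the fold-change threshold.

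All 5 genes of the Atg8 family were called higher, as 25.9% of all genes were, although the call of Gabarapl1 was lost under 8 of 14 alternatives. Besides the members, Map1lc3a rose with a log2 fold change of 0.57, Gabarapl2 with 0.48 and Gabarap with 0.46, against 0.11 for Gabarapl1. Gabarap had the smallest p of the 3, and was at 282, 280 and 255 CPM in Control and at 368, 376 and 377 CPM in STZ (SE 0.04, adjusted p = 4.51e-13).

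Of the partners of the ULK kinases, which hold the kinase in an active complex, all 3 were higher, as 25.9% of all genes were. Atg13 rose from 60.9, 59.7 and 58.4 CPM in Control to 82.2, 88.1 and 75.5 CPM in STZ (log2 fold change 0.45, SE 0.06, adjusted p = 3.74e-09). Atg101 rose by 0.28 and Rb1cc1, which encodes FIP200, by 0.16. Ulk1 was therefore the only 1 of the 5 genes of the initiation complex that was called lower, and its call held under 10 of 14 alternatives.

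Of 7 partners of Beclin 1, 4 were higher and 3 were not past the threshold, beside 25.9% higher and 25.1% lower of all genes. Rubcn, which encodes Rubicon, an inhibitor of the complex, had the smallest p (log2 fold change 0.39, SE 0.05, adjusted p = 4.39e-09). Atg14, which directs the complex to autophagosome formation, rose by 0.53, whereas Pik3c3, the lipid kinase itself, had a log2 fold change of 0.02.

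Among the genes for lipid transfer and the other WIPI proteins, 4 were higher, 1 was lower and 3 were not past the threshold. The shares of all genes were 25.9% higher and 25.1% lower. Wdr45, which encodes WIPI4, rose from 31.6, 29.7 and 32.8 CPM in Control to 44.3, 46.1 and 46.7 CPM in STZ (log2 fold change 0.54, SE 0.07, adjusted p = 3.24e-09). Wipi2 rose by 0.30 and Vmp1, which encodes a lipid scramblase, by 0.36. The gene that was lower was Tmem41b, another scramblase gene, at -0.26.

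Of 8 conjugation enzymes tested, 2 were higher, 2 lower and 4 not past the threshold, which are about the shares of all genes (25.9% higher, 25.1% lower), with a median log2 fold change of -0.04. Atg4c, which encodes a protease of Atg8 proteins, fell by 0.39 on the log2 scale (SE 0.10, adjusted p = 7.71e-04). Atg10 fell by 0.59 but had only 35 to 57 reads per sample (SE 0.19, adjusted p = 0.0105). Atg3, Atg5 and Atg12, which act beside Atg7, had log2 fold changes of 0.02, -0.09 and -0.0045.

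Of 6 further cargo receptors and adaptors, 5 were higher and none was lower, against 25.9% and 25.1% of all genes. Nbr1, a receptor related to p62, had the smallest p (log2 fold change 0.33, SE 0.04, adjusted p = 2.56e-09), and Optn, Tollip, Tax1bp1 and Calcoco1 rose by 0.29, 0.25, 0.23 and 0.19. Of 7 genes of mitophagy, 2 were higher, 1 lower and 4 not past the threshold, which is not far from these shares. Bcl2l13, a receptor on the outer mitochondrial membrane, rose by 0.36 (SE 0.05, adjusted p = 6.3e-08), while Fundc1, another such receptor, fell by 0.41 on the log2 scale.

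Of 7 genes for the fusion of autophagosomes with lysosomes, 4 were higher and 1 was lower, against 25.9% and 25.1% of all genes. Rab7a, a GTPase of late endosomes, was at 202, 199 and 197 CPM in Control and at 271, 282 and 277 CPM in STZ (log2 fold change 0.47, SE 0.04, adjusted p = 9.78e-14). Stx17, the autophagosomal SNARE, fell by 0.44 on the log2 scale.

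Of 14 upstream regulators in mTORC1, AMPK and their controllers, 3 were higher, 4 lower and 7 not past the threshold, with a median of -0.07. These counts lie near the shares of all genes, 25.9% higher and 25.1% lower. Deptor, an inhibitor of mTOR, fell from 132, 116 and 119 CPM in Control to 83.4, 89.3 and 78.7 CPM in STZ (log2 fold change -0.55, SE 0.05, adjusted p = 3.97e-12). Of the 5 transcription factor genes, none was past the adjusted p-value of 0.05 by edgeR, and none had an unadjusted p-value under 0.05. Foxo3 had the smallest p (log2 fold change 0.12, SE 0.06, adjusted p = 0.105), and its value rested on single samples. Without Control replicate 3 it was 0.17 (adjusted p = 0.0229), without Control replicate 2 it was 0.05 (adjusted p = 0.543) and without STZ replicate 2 it was 0.06 (adjusted p = 0.493). Tfeb, Tfe3 and Mitf had log2 fold changes of 0.14, 0.04 and 0.43. Mitf had only 19 to 41 reads per sample, and its groups did not overlap (SE 0.24, adjusted p = 0.132).

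**Figure D4:**
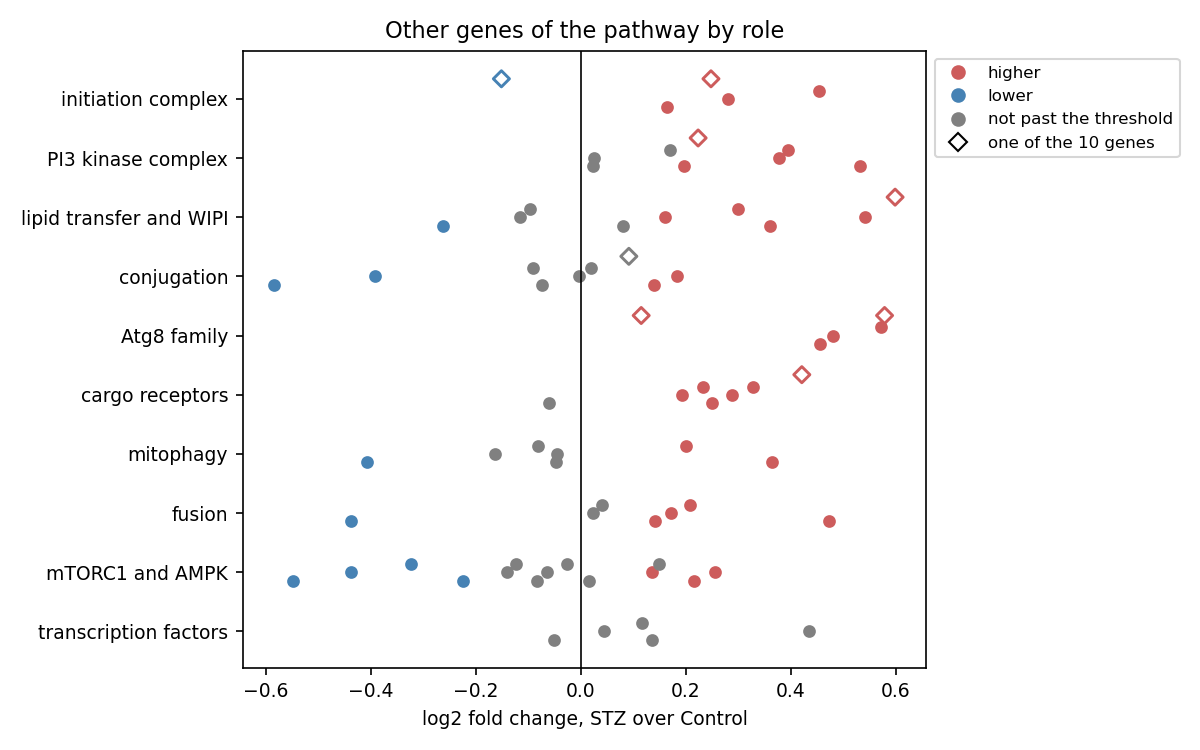
Log2 fold change of STZ over Control (horizontal axis) for the 68 other genes of the pathway tested, in rows by role (filled points), with 8 of the 10 members as open diamonds in the row of their role (Dram1 and Dram2 have none). Red is higher, blue lower and grey not past an adjusted p-value of 0.05; the Atg8 family row lies wholly above 0, and the conjugation row on both sides of 0.

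In the GRCr8 annotation, where all 10 members were found by symbol, the span of Dram2 overlaps Cept1, which had 3114 reads in the 6 samples, that of Wipi1 overlaps Arsg, which had 1, that of Becn1 overlaps Cntd1 and that of Atg7 a long non-coding RNA. The libraries were stranded, but whether featureCounts used the strand is not given in the sources used here. Without it, reads from exons that overlap between such a pair cannot be told apart. Only the spans of the genes were compared, so whether their exons overlap was not checked. Map1lc3b has 3 pseudogenes by symbol in that annotation, and Sqstm1 and Dram2 have 1 each. Only uniquely mapped reads were counted, so the counts of these genes may miss reads that fit a copy as well.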

How the data were processed

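RNA of NRK-52E cells, 3 Control and 3 STZ samples, was sequenced from stranded mRNA libraries. The authors used STAR 2.7.10a with the rat build Rnor6, summed the uniquely mapped reads of each gene by featureCounts and deposited the raw counts, 1 column per sample. From these counts, TMM scaling, the filter filterByExpr, the quasi-likelihood test and Benjamini-Hochberg adjustment over 11870 genes were computed here with edgeR 4.0.16 (R 4.3.3). The standard error (SE) was the size of the log2 fold change over the root of F. The call used an adjusted p-value under 0.05, and counts at the study's thresholds were added. Pair ratios were compared by exact permutation.

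The alternatives were 3 scalings, 2 filters, DESeq2 1.42.0, limma-voom (limma 3.58.1), the replicate block and each sample left out. The steps were tested on simulated counts, with changes larger than those of most members. That test therefore does not cover changes as small as theirs. Members and lists were chosen with earlier results of these data known. Named were the members, and in each role list any gene past both thresholds (there was none) and that with the smallest p; other genes of the lists were chosen after their values were seen. The genes most like Wipi1 needed a mean of at least 50 normalized counts. Gene length was not used, so levels of different genes are not compared. Replicates differed by more than sampling noise (chi-square per degree of freedom 1.85 to 2.56). Promoters and gene names came from RefSeq (GRCr8), with 9 of 10 members matched to a promoter. Becn1 had no entry. Among the listed genes without a tested row, Atg4a, Epcam and Itgam were not matched in the count table and Prkag1 did not pass the filter.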

Additional observations from a re-analysis of the deposited data

How the results depend on the processing

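The 7 members that were higher were 6 or 7 under every alternative that kept the call rule, and 6 to 7 when 1 sample was dropped; Gabarapl1 was the member whose call was lost. The 1 member that was lower, Ulk1, numbered 0 with DESeq2's Wald test and 0 to 1 when 1 sample was dropped. Under both thresholds of the study 0 members, 0 of the wider list higher and 0 lower were called. Of all 11870 genes tested, 268 were higher and 132 lower, which follows from the added fold-change threshold. The wider list had 9 lower genes, and 14 under library size only, where 26 were higher; that scaling moves the median of all genes from -0.01 to -0.04. When 1 sample was dropped, 25 to 29 of the wider list were higher and 8 to 11 lower, and of all genes 2771 to 2878 were higher and 2629 to 2801 lower. Under library size only, 2664 genes were higher and 3485 lower. Over the single members, 128 of 140 refits kept direction and call and 12 lost the call, 8 of Gabarapl1 and 4 of Ulk1, and no direction was reversed. The 4 pair ratios moved by less than 1 SD in all 28 recomputations.

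Control and STZ share replicate numbers. Same-numbered samples had correlations of 0.0319, -0.0389 and 0.102 between their deviations over 10341 genes. These are small, but they cannot show whether same-numbered samples were handled together, which the sources used here do not say. In the fit with the replicate block, 7 members were higher and 1 lower, 30 and 11 of the wider list, and 3139 and 3060 of all genes. Of the 10 members, Atg7 had the fewest reads, 170 to 256 per sample.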
